A study of Homo sapiens with 5 samples.

Results

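The genes described here are the 10 human genes of the YAP, TAZ, TEAD and VGLL factors, the nuclear end of the Hippo pathway. They are YAP1 and WWTR1 (whose protein is called TAZ), TEAD1, TEAD2, TEAD3 and TEAD4, and VGLL1, VGLL2, VGLL3 and VGLL4. They were found by symbol among 27139 genes listed in both deposited tables, and all 10 passed the filter on low counts that left 17634 genes for testing. VGLL2 passed it through the YAPi libraries alone, since its counts reached 10 in YAPi replicates 2 and 3 and stayed at 4 and 6 in the GiWi libraries. WWTR1 is not the gene TAZ of the tafazzin protein, which shares that name.

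Polyadenylated RNA was sequenced from H1 cells labelled wild type, an established human embryonic stem cell line, at day 30 of differentiation. In the YAPi group (3 libraries), cells had received a YAP inhibitor together with Activin, which signals through SMAD proteins, for 24 h. In the GiWi group (2 libraries), cells had received a GSK3 inhibitor, which activates Wnt signalling, and a Wnt/β-catenin inhibitor, with a labelled treatment time of 48 h. Agent and treatment time therefore differed together. The labels do not name the inhibitors, and they do not say whether libraries of 1 group were separate cultures. The p-values therefore reflect library-to-library spread that may be technical. The comparison asks how the transcripts of cultures made by these protocols differed at day 30.

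YAP and TAZ are paralogous coactivators without a DNA-binding domain. The Hippo kinases MST and LATS phosphorylate them, which holds them in the cytoplasm or marks them for degradation. When they are not phosphorylated they enter the nucleus and bind TEAD proteins, which recognise a short motif known from muscle promoters as the M-CAT element. VGLL proteins have no DNA-binding domain either and bind TEADs through a short motif, so that VGLL4 competes with YAP. In heart muscle, YAP and TEAD1 are known for their part in the growth of the fetal ventricle.

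The libraries held 43661243 to 48904372 exon counts. YAPi replicate 3 stood apart from its group: its log2 CPM (read counts scaled to library size with TMM factors) correlated over genes, which are no replicates, at 0.976 and 0.977 with replicates 1 and 2, against 0.997 between replicates 1 and 2 and 0.997 within the GiWi pair. The 10 heart muscle markers summed to 3704, 3818 and 1574 CPM in YAPi replicates 1, 2 and 3 and to 5543 and 5466 CPM in the GiWi libraries. Of them MYH7 rose, MYH6, NPPA and RYR2 fell and 6 did not pass, and MYH6 alone measured 123, 132 and 49.2 CPM in YAPi and 1879 and 1856 CPM in GiWi libraries. In 9 of the 10 every YAPi library lay below both GiWi libraries, as in 37.1% of all tested genes. Without YAPi replicate 3, 8 passed as lower and 1 as higher, where 36.5% and 38.4% of all tested genes did. The 8 fibroblast markers summed to 106200 to 127000 CPM in YAPi and to 59630 and 59920 CPM in GiWi libraries, sums made up mostly of COL1A1, COL1A2 and COL3A1. Of the 8, 5 rose (those collagens, DCN and LUM) and 3 fell (PDGFRA, POSTN and TCF21). The 6 macrophage markers summed to 101 to 274 CPM in YAPi and to 0.243 and 0.271 CPM in GiWi libraries, and CD163 and C1QB were at 0 counts in both GiWi libraries. The 5 eye field and neural markers summed to 65.1 to 72.5 CPM in YAPi and to 0.0746 and 0.116 CPM in GiWi libraries. Of the pluripotency markers, POU5F1, NANOG and LIN28A lay at or near 0 in all 5 libraries, and DNMT3B, which is not limited to such cells, fell to 2.96 to 3.98 CPM in YAPi, against 5.47 and 5.29 CPM in GiWi libraries. The part of these other cells in any result below was not tested, and in bulk RNA fewer cells of a type and less RNA per cell cannot be told apart.

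The promoters of 4 members are printed because each has 1 entry in the RefSeq table and they cover the patterns found below: a fall (YAP1, TEAD3), a rise (VGLL3) and a high value in 1 library (VGLL1). Each window runs from 250 bases before to 50 bases after the gene start on the gene's strand, in GRCh38.p14 as RefSeq gives it, whereas gene spans further on are hg19 as the deposited tables give them. Capitals mark the TEAD motif.
YAP1 (chr11:102110197-102110496, plus strand): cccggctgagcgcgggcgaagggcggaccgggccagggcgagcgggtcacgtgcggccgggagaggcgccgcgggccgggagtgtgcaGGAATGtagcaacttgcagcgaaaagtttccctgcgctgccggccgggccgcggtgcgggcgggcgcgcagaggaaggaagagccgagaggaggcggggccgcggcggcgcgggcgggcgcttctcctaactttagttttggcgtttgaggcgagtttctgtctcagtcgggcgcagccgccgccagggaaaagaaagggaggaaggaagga
TEAD3 (chr6:35497030-35497329, minus strand): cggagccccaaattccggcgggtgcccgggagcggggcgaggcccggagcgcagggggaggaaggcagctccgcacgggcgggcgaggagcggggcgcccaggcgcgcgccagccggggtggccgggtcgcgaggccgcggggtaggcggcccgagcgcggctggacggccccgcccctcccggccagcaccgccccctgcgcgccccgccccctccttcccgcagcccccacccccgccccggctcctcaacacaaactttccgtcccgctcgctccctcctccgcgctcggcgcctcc
VGLL3 (chr3:86991100-86991399, minus strand): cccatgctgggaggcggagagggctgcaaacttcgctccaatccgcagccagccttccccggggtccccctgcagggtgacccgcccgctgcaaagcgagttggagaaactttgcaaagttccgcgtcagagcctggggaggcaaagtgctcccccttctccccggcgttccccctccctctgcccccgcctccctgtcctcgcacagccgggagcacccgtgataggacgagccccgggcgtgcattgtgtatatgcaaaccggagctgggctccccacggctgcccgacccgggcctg
VGLL1 (chrX:136531965-136532264, plus strand): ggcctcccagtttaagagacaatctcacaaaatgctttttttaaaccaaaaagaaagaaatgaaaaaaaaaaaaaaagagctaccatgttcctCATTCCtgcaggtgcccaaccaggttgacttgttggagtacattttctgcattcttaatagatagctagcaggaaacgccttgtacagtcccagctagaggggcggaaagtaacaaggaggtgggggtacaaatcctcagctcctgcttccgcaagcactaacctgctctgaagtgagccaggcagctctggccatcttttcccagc
The search was for GGAATG or CATTCC, that is 1 motif on both strands with no overlap with another. YAP1 held it 162 bases and VGLL1 157 bases before the gene start. They were the 2 of 14 member promoters, from 8 of the 10 members, that held it. Of 35116 promoters of the same length in the table, 14% did. TEAD1 and TEAD4 had no entry. A match describes letters and does not show a site in use. The windows also differed in base composition: the YAP1 window held 40 CpG pairs and the TEAD3 window 44, against 22 for VGLL3 and 3 for VGLL1, where the median over all promoters of the table was 14. Protein sequences were not used here.

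Expression of the coactivators and of 3 of the 4 TEAD genes was lower with the YAP inhibitor and Activin, and VGLL3 was higher. Of the 10 members, 5 fell (YAP1, WWTR1, TEAD2, TEAD3 and TEAD4), 1 rose (VGLL3) and 4 did not pass (TEAD1, VGLL1, VGLL2 and VGLL4), by edgeR's quasi-likelihood test at a Benjamini-Hochberg adjusted p under 0.05 over all 17634 genes. The background was high: 57.1% of all tested genes were called, 26.9% lower and 30.2% higher, so 6 of 10 called is near it. Of the called genes 52.9% were higher, but 35.8% with library size as the sole scaling, which put the median of all genes at -0.18. Without YAPi replicate 3, 7 of 9 members were called (6 lower, TEAD1 among them, and 1 higher), with 74.9% of all tested genes called, 36.5% lower and 38.4% higher. Without GiWi replicate 1 or 2, 6070 and 5909 genes were called in all, against 10065. The libraries of both groups did not overlap in 9 members (5 lower and 4 higher), or 8 of 9 (5 lower and 3 higher) without VGLL2, which passed the filter through YAPi alone, where 75.8% of all tested genes showed such a gap, 37.1% lower and 38.7% higher. The median log2 fold change over the 10 members was -0.11, beside 0.01 over all tested genes. Fold changes are YAPi over GiWi. The SE beside them is the absolute log2 fold change over the square root of edgeR's F statistic, since the test itself gives no SE. Levels are TMM-scaled CPM as mean ± SD (YAPi n = 3, GiWi n = 2).

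**Figure D1:**
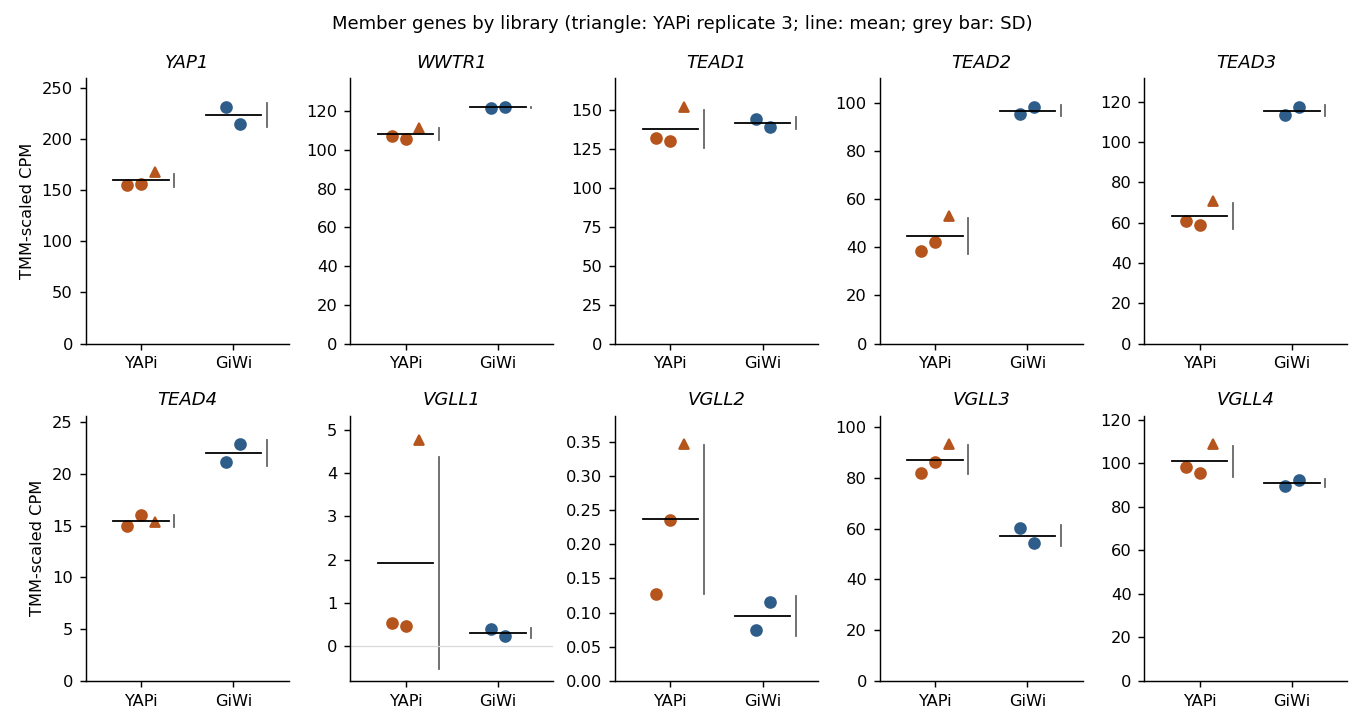
TMM-scaled counts (CPM) of the 10 members in each library, in a panel per gene with its own axis. Points are libraries, lines are group means and grey bars SDs; YAPi replicate 3 is a triangle. TEAD2 and TEAD3 show the widest gaps among the genes that fell, and VGLL1 is high in YAPi replicate 3 alone.

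YAP1, the coactivator that gives the inhibitor its name, measured 155, 156 and 167 CPM in the YAPi libraries, against 231.5 and 215 CPM in the GiWi libraries. All 3 YAPi libraries lay below both GiWi libraries, and they were closer to each other than the GiWi pair was. The mean was 159.6 ± 6.75 CPM in YAPi and 223.2 ± 11.6 CPM in GiWi, a log2 fold change of -0.48 ± 0.06 (edgeR adjusted p = 0.00186). Without YAPi replicate 3 the log2 fold change was -0.52. YAP1 spans chromosome 11, 101981192 to 102104154, on the plus strand of hg19, and no other listed gene overlapped it.

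WWTR1, which encodes the paralog TAZ, measured 107, 106 and 111.5 CPM in the YAPi libraries, against 121.7 and 122.3 CPM in the GiWi libraries. The groups were again apart, by a much smaller distance than for YAP1. Its log2 fold change was -0.17 ± 0.05 (edgeR adjusted p = 0.0321). The call was lost when either GiWi library was left out (adjusted p = 0.131 and 0.145), when YAPi replicate 1 or 2 was left out (0.127 and 0.14), and when YAPi replicates 1 and 2 were summed into 1 library (0.136). Without YAPi replicate 3 it held, at -0.20 (adjusted p = 0.000648), and over all alternatives but the replicate block the adjusted p ran from 0.000648 to 0.145. WWTR1 spans chromosome 3, 149235022 to 149375888, on the minus strand.

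The ratio of WWTR1 to YAP1 was higher in all 3 YAPi libraries, by a measure that needs no scaling between libraries. In FPKM (fragments per kilobase of transcript, scaled by library, as deposited by the authors) the ratio was 0.737, 0.721 and 0.713 in the YAPi libraries, against 0.561 and 0.606 in the GiWi libraries. The mean was 0.724 ± 0.0123 in YAPi (SD, n = 3) and 0.583 ± 0.032 in GiWi (SD, n = 2), and each YAPi library lay above both GiWi libraries. The exact two-sided permutation test over libraries gave p = 0.1, the smallest that the 10 splits allow, so the design could not reach 0.05. YAP1 stayed the more abundant per length in all 5 libraries. The FPKM of YAP1 and WWTR1 summed to 39.3 to 41.8 in YAPi libraries and to 59.6 and 55 in GiWi libraries. In TMM-scaled CPM the sums were 262, 262 and 279 in YAPi and 353 and 337 in GiWi libraries.

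TEAD1, the TEAD gene best known from heart muscle, did not pass the test. It measured 132.2, 130.2 and 152.3 CPM in the YAPi libraries, against 144.7 and 139.1 CPM in the GiWi libraries. The groups overlapped, because YAPi replicate 3 lay above both GiWi libraries and replicates 1 and 2 below them. The log2 fold change was -0.04 ± 0.08 (edgeR adjusted p = 0.723). Without YAPi replicate 3 it was -0.11 and passed (adjusted p = 0.0357), and library size as the sole scaling also gave a call (-0.23, adjusted p = 0.0357). It was 0.01, 0 and 0.01 with YAPi replicates 1 and 2 summed and without YAPi replicate 1 or 2, so its direction was not settled. Over the alternatives other than the replicate block its adjusted p ran from 0.0357 to 0.983. TEAD1 spans chromosome 11, 12695969 to 12966284, on the plus strand.

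TEAD2, a TEAD gene prominent in early embryos of the mouse, showed the largest fall of the members. It measured 38.7, 42.2 and 53.2 CPM in the YAPi libraries, against 95.3 and 98.5 CPM in the GiWi libraries. Every YAPi library was far below both GiWi libraries, and YAPi replicate 3 was the highest of its group. The mean was 44.7 ± 7.58 CPM in YAPi and 96.9 ± 2.24 CPM in GiWi (log2 fold change -1.12 ± 0.14, edgeR adjusted p = 0.00145). Of all tested genes, 7.59% had a lower log2 fold change. TEAD2 spans chromosome 19, 49843855 to 49865714, on the minus strand. CD37, on the other strand, overlaps that span, with 13, 8 and 4 counts in YAPi and 0 in both GiWi libraries.

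TEAD3 measured 60.7, 58.7 and 70.9 CPM in the YAPi libraries, against 113.6 and 117.4 CPM in the GiWi libraries. As for TEAD2, the groups were well apart and YAPi replicate 3 lay nearest to GiWi. Its log2 fold change was -0.86 ± 0.09 (edgeR adjusted p = 0.000898). TEAD3 is known for expression in the placenta, and it spans chromosome 6, 35441374 to 35464861, on the minus strand.

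TEAD4, which is needed for the trophectoderm of the mouse blastocyst, was the least abundant TEAD gene. It measured 14.9, 16 and 15.4 CPM in the YAPi libraries, against 21.1 and 22.9 CPM in the GiWi libraries. The YAPi libraries were close together, replicate 3 between the other 2, and all were below GiWi. The log2 fold change was -0.51 ± 0.07 (edgeR adjusted p = 0.00217). TEAD4 spans chromosome 12, 3068478 to 3149842, on the plus strand. The falls of YAP1, TEAD2, TEAD3 and TEAD4 and the rise of VGLL3 passed under all 15 alternatives.

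**Figure D2:**
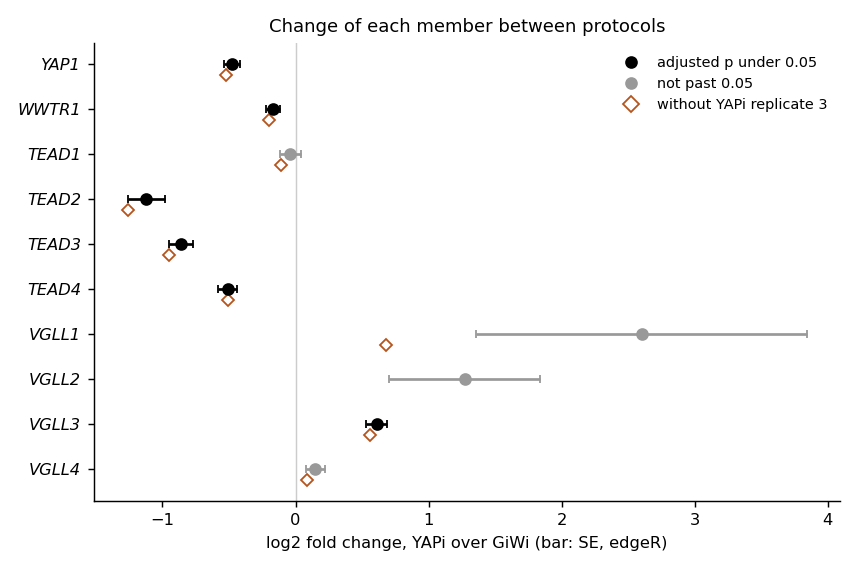
Log2 fold change of each member, YAPi over GiWi, with the SE derived from the F statistic of edgeR as a bar. Black points passed an adjusted p under 0.05 and open diamonds are the values without YAPi replicate 3. TEAD2 lies lowest at -1.12, TEAD1 and VGLL4 lie near 0, and the point for VGLL1 moves to 0.68 without replicate 3; VGLL2 was not tested without it.

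TEAD1 made up more, and TEAD2 less, of the TEAD sum in all YAPi libraries. Per length, the 4 TEAD genes summed to 49.9, 50.6 and 59.7 FPKM in the YAPi libraries, against 101 and 101 FPKM in the GiWi libraries. The gap was smaller in TMM-scaled CPM, at 247, 247 and 292 in YAPi against 375 and 378 in GiWi. That measure takes no account of length, and it also scales the libraries by TMM factors, which the FPKM values lack. TEAD1 made up 21.8 ± 0.562% of the FPKM sum in YAPi and 13 ± 0.612% in GiWi (SD, n = 3 and n = 2). TEAD2 made up 33.8 ± 2.07% in YAPi and 42.8 ± 0.0986% in GiWi. TEAD3 held 31.5 ± 0.911% in YAPi and 33.5 ± 0.119% in GiWi, and TEAD4 held 12.9 ± 1.36% in YAPi and 10.7 ± 0.395% in GiWi. In each of the 4 shares the YAPi libraries lay on 1 side of both GiWi libraries. With transcript lengths of the count table, each share lay on the same side. These shares are a description, with no test.

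VGLL1, a TEAD cofactor known from placenta and other epithelia, was high in a single library. It measured 0.531, 0.47 and 4.75 CPM in YAPi replicates 1, 2 and 3, against 0.392 and 0.232 CPM in the GiWi libraries, which is 25, 20 and 191.5 counts in YAPi against 21 and 12 in GiWi. YAPi replicates 1 and 2 were only slightly above the GiWi pair. The log2 fold change was 2.60 ± 1.24 and did not pass (edgeR adjusted p = 0.123); without YAPi replicate 3 it was 0.68 (adjusted p = 0.072). DESeq2 called it at 2.62 (adjusted p = 0.0274), in a run that called 50.6% of the genes with an adjusted p, and over the alternatives other than the replicate block the adjusted p ran from 0.0274 to 0.373. VGLL1 spans chromosome X, 135614311 to 135638966, on the plus strand, and MIR934, at 0 counts in every library, lies within it.

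Other genes were high in the same library as VGLL1. The nearest tested genes by the rule below were GABRP and APCDD1, at root mean square differences of 0.382 and 0.431. Those differences were wider than for the other members given below. Both genes were picked for a profile like that of VGLL1, so their high value in YAPi replicate 3 follows from the choice. GABRP measured 3.23, 2.94 and 48.2 CPM in YAPi replicates 1, 2 and 3 and 2.24 and 2.13 CPM in the GiWi libraries. APCDD1 measured 12.2, 12.2 and 52.4 CPM in YAPi and 7.18 and 8.27 CPM in GiWi. Of the 6 trophoblast and urothelial markers, 0 of the 4 tested passed with all libraries, and CGB5 was at 0 counts in every library. Without YAPi replicate 3, 2 of the 4 passed as higher and 1 as lower, where 38.4% and 36.5% of all tested genes did. Their summed level was 7.1, 7.12 and 77.8 CPM in YAPi replicates 1, 2 and 3 and 14.9 and 14.4 CPM in GiWi. TP63, a transcription factor of stratified epithelium, measured 0.85, 1.03 and 21.3 CPM in YAPi and 0.336 and 0.271 CPM in GiWi. It thus lay above GiWi in every YAPi library, whereas the sum of its list lay below GiWi in YAPi replicates 1 and 2. SFN, an epithelial member of the 14-3-3 family that binds phosphorylated YAP, measured 2.32, 1.88 and 31.2 CPM in YAPi and 0.541 and 0.425 CPM in GiWi. The 6 broader epithelial markers all rose and summed to 3026, 3153 and 3472 CPM in YAPi and to 1858 and 2046 CPM in GiWi, sums made up mostly of KRT8 and KRT18. Within YAPi they differed in replicate 3: KRT19 measured 284, 295 and 534 CPM in replicates 1, 2 and 3, and EPCAM 211, 205 and 111 CPM. The part of such cells in the VGLL1 value was not tested.

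**Figure D3:**
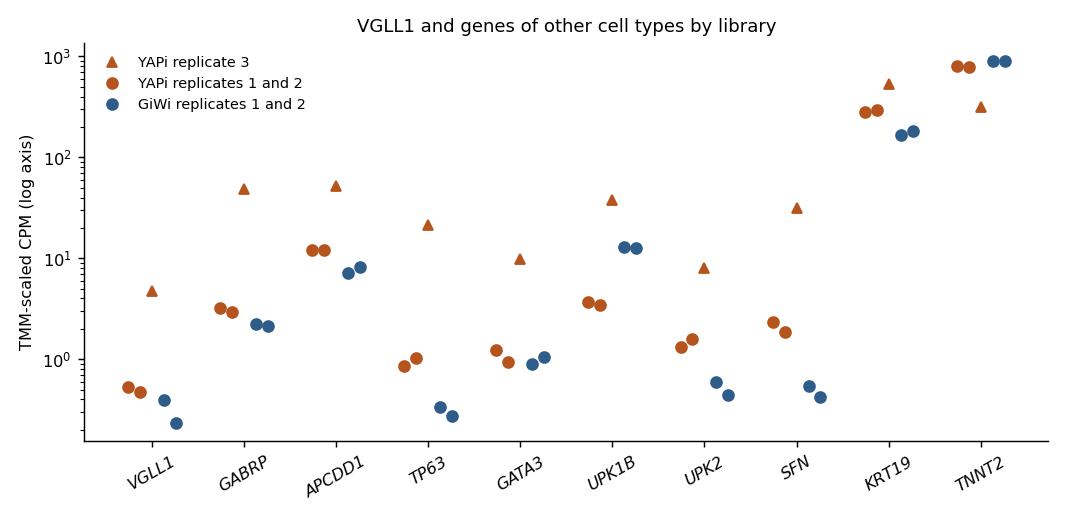
TMM-scaled counts (CPM) on a log axis of VGLL1, its 2 nearest genes, markers of other cell types and TNNT2, a heart muscle gene, in each library. In YAPi replicate 3 (triangles) VGLL1 reached 4.75 CPM and TP63 21.3 CPM, above the 4 other libraries, while TNNT2 was lowest there.

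VGLL2, a cofactor of skeletal muscle in the mouse, was close to absent. It measured 0.128, 0.235 and 0.346 CPM in the YAPi libraries, against 0.0746 and 0.116 CPM in the GiWi libraries, or 5.5, 10 and 14 counts in YAPi against 4 and 6 in GiWi. All YAPi values lay above both GiWi values, at a depth where single counts matter. The log2 fold change was 1.27 ± 0.57 (edgeR adjusted p = 0.105). Of the skeletal muscle markers, MYF5 was at 0 in every library and MYOD1, MYF6 and PAX7 were under 0.1 CPM in all 5. The other 3 were present: MYOG, at 0.198 to 0.425 CPM in YAPi and 0.616 and 0.541 CPM in GiWi, did not pass, CKM fell to 11.8 to 41.1 CPM in YAPi, against 94.2 and 99.4 CPM in GiWi, and ACTA1 rose to 10.1 to 13.3 CPM in YAPi, against 5.86 and 6.24 CPM in GiWi. VGLL2 spans chromosome 6, 117586721 to 117594728, on the plus strand.

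VGLL3, a TEAD cofactor known from studies of muscle precursors and skin, was the member that rose. It measured 81.8, 86.2 and 93.2 CPM in the YAPi libraries, against 60.1 and 54.2 CPM in the GiWi libraries. Each YAPi library was above both GiWi libraries, with replicate 3 the highest. The mean was 87.1 ± 5.76 CPM in YAPi and 57.2 ± 4.16 CPM in GiWi (log2 fold change 0.61 ± 0.08, edgeR adjusted p = 0.00212). The tables list different transcripts for it, of 10410 bases in the count table and 2473 bases in the FPKM table, and the exons of the shorter transcript took 33.5, 32.1 and 35.9% of its counts in YAPi and 29.9 and 34.6% in GiWi libraries. VGLL3 spans chromosome 3, 86987119 to 87040273, on the minus strand.

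VGLL4, the VGLL protein known to compete with YAP for TEAD, did not pass the test. It measured 98.2, 95.5 and 108.8 CPM in the YAPi libraries, against 89.7 and 92.3 CPM in the GiWi libraries. The YAPi libraries lay above the GiWi libraries on this scale by a narrow gap, and in FPKM the groups overlapped, at 20.9, 20.2 and 23 in YAPi against 21.3 and 21.4 in GiWi. Its log2 fold change was 0.15 ± 0.07 (edgeR adjusted p = 0.133), and it was -0.05 with scaling by library size alone. VGLL4 spans chromosome 3, 11597541 to 11685451, on the minus strand. ATG7 overlaps that span on the other strand, with 733.5, 692 and 721 counts in YAPi and 618 and 619 counts in GiWi libraries, and the sources used here do not say whether the counting used strand. VGLL4 made up 66.9 ± 3.94% of the VGLL sum in FPKM in YAPi and 76 ± 0.147% in GiWi, and VGLL3 made up 29.4 ± 0.524% in YAPi and 23.1 ± 0.126% in GiWi. VGLL3 took a larger share in each YAPi library, and VGLL1 took 8.38% in replicate 3 and 1.04 to 1.16% in replicates 1 and 2, beside 1.02 and 0.585% in GiWi.

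**Figure D4:**
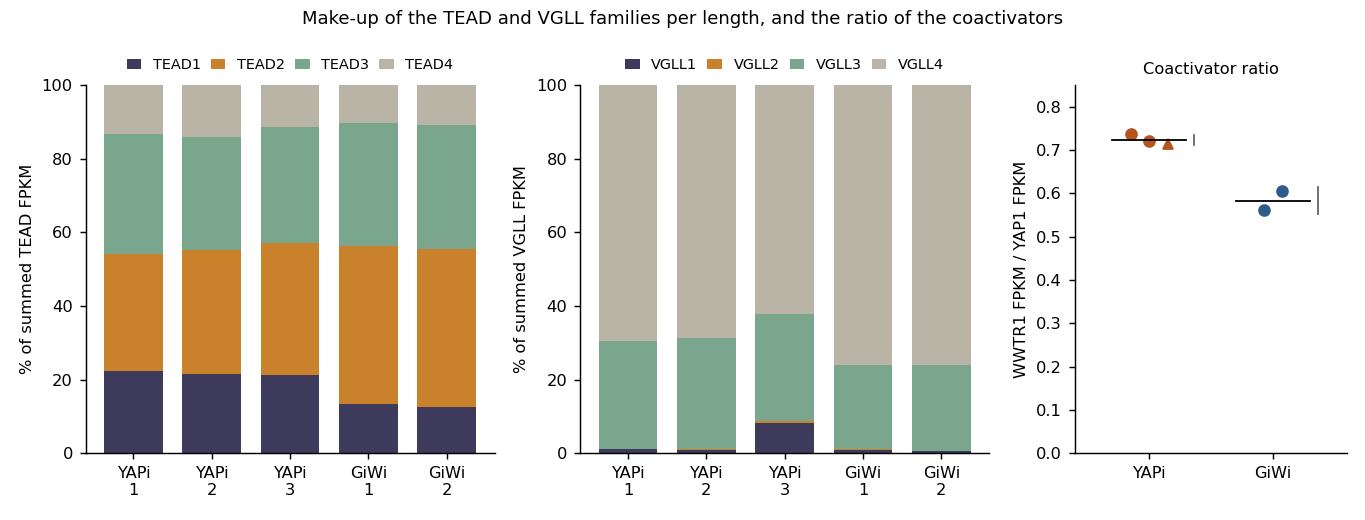
Share of each gene in the summed FPKM of the TEAD family (left) and the VGLL family (middle) per library, and the ratio of WWTR1 to YAP1 FPKM (right; points are libraries, lines means, grey bars SDs, YAPi replicate 3 a triangle). TEAD1 took 21.8% in YAPi and 13% in GiWi on average, and the ratio was 0.724 in YAPi and 0.583 in GiWi.

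The order of the levels per length differed between the groups. In YAPi, YAP1 came first at 23.4 ± 0.906 FPKM, followed by VGLL4 (21.4 ± 1.41), TEAD2 (18.1 ± 2.93), WWTR1 (16.9 ± 0.469) and TEAD3 (16.8 ± 1.7), and each neighbour in this run overlapped the next. TEAD1 (11.6 ± 0.998), VGLL3 (9.43 ± 1.07), TEAD4 (6.85 ± 0.21), VGLL1 (1.25 ± 1.59) and VGLL2 (0.0827 ± 0.0405) followed, each apart from the next. In GiWi, TEAD2 came first at 43.2 ± 0.111 FPKM, followed by YAP1 (36.2 ± 2.78), TEAD3 (33.8 ± 0.0445), VGLL4 (21.3 ± 0.0113) and WWTR1 (21.1 ± 0.462), of which VGLL4 and WWTR1 overlapped. TEAD1 (13.2 ± 0.682), TEAD4 (10.8 ± 0.346), VGLL3 (6.48 ± 0.0262), VGLL1 (0.226 ± 0.0877) and VGLL2 (0.0375 ± 0.0106) came last. Where the length was taken from the count table, the order of TEAD2, TEAD3 and WWTR1 in YAPi changed, and VGLL3, at 6.61, stood beside TEAD4 there.

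The members did not all follow 1 profile across the libraries. By the root mean square difference of centred log2 CPM over the 5 libraries, the nearest members to each other were YAP1 and TEAD4 (0.0861), WWTR1 and TEAD1 (0.0869) and TEAD1 and VGLL4 (0.0984), while TEAD2 and TEAD3 lay 0.149 apart. By the same measure, the tested genes nearest to YAP1 were PBRM1 (0.0141), a subunit of a chromatin remodelling complex, and TNKS2 (0.0196), a tankyrase. Those nearest to TEAD2 were C1QTNF6 (0.0268) and FOXRED2 (0.0296), to TEAD3 TMEM200B (0.0134) and SMIM10L2B (0.0152), and to TEAD4 GAPDH (0.0181) and RHOF (0.0256). Those nearest to WWTR1 were HNRNPM (0.00915) and CDK5RAP3 (0.0112), to TEAD1 SLC7A6 (0.00987) and TSR1 (0.0149), to VGLL3 ACSS3 (0.03) and ELF1 (0.0302), and to VGLL4 ARFGAP1 (0.0161) and SYVN1 (0.0188). Such profiles were common: of 9765 genes considered, 987 lay within 0.1 of YAP1 and 99 within 0.1 of TEAD2, but 0 within 0.1 of VGLL1. The genes considered averaged at least 10 CPM, whereas VGLL1 lay at 0.232 to 0.531 CPM outside YAPi replicate 3. The 0 therefore does not show that its profile was unique. In YAPi replicate 3, 9 of the 10 members lay above the mean of replicates 1 and 2, by 0.07 to 1.94 on the log2 scale (CPM + 1), TEAD4 lay at -0.01, and the median of all tested genes was at -0.002.

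Upstream in the pathway, AMOT and FAT4 fell, and the core kinases did not pass the main test, though some passed under alternatives. The lists that follow held 52.4 to 86.4% called genes, beside the 57.1% of all tested genes (30.2% higher and 26.9% lower). Of the 24 tested genes of the kinase core and its activators, 3 rose, 10 fell and 11 did not pass (54.2% called, median log2 fold change -0.16). STK3 and STK4, which encode MST kinases, had log2 fold changes of -0.19 and -0.02 (edgeR adjusted p = 0.116 and 0.75), and LATS1 and LATS2, the kinases that phosphorylate YAP, had 0.03 and -0.18 (0.749 and 0.0669). LATS2 passed as lower without YAPi replicate 3 (-0.23, edgeR adjusted p = 0.000236) and with the replicate block. It also passed with limma-voom (adjusted p = 0.00144) and with limma on log2(FPKM + 1) and log2(FPKM + 0.1) (0.00979 and 0.0199). Without YAPi replicate 1 or 2 LATS2 did not pass (edgeR adjusted p = 0.203 and 0.212). STK3 passed as lower with limma on both FPKM scales (adjusted p = 0.0272 and 0.0389). LATS2, STK3 and STK4 passed as lower with library size as the sole scaling. SAV1, the scaffold of the MST kinases, fell to 18.1 ± 1.08 CPM in YAPi, against 22 ± 0.41 CPM in GiWi, a call that was lost without either GiWi library, without YAPi replicate 1 or 2, and with those 2 summed (adjusted p = 0.0726 to 0.122 in edgeR). NF2, the tumour suppressor merlin, stood at 28.5 ± 2.91 CPM in YAPi and 29.7 ± 0.105 CPM in GiWi. It passed as lower without YAPi replicate 3 (-0.14, edgeR adjusted p = 0.0358), with library size as the sole scaling (-0.25, 0.0377) and with the replicate block. Without GiWi replicate 1 or 2 the list gave 8 and 7 calls, against 13.

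Of the 28 polarity, cadherin and STRIPAK genes, 3 rose, 16 fell and 9 did not pass (67.9% called, median -0.33). FAT4, a giant cadherin, fell to 109 ± 6.38 CPM in YAPi, against 196.8 ± 4.36 CPM in GiWi. Of the 21 genes that retain, degrade or dephosphorylate YAP and TAZ, 0 rose, 11 fell and 10 did not pass in the main edgeR test (52.4% called, median -0.17). DESeq2 called 1 higher and 11 lower. Without YAPi replicate 3, edgeR called 3 higher and 11 lower, where 38.4% and 36.5% of all tested genes were. Without YAPi replicate 1 it called 1 higher and 4 lower, and without YAPi replicate 2 it called 1 higher and 5 lower. AMOT, which ties YAP to tight junctions and actin, fell to 26.9 ± 4.62 CPM in YAPi, against 76.8 ± 1.04 CPM in GiWi (log2 fold change -1.52 ± 0.14). Its relative AMOTL1 fell by 0.37 on the log2 scale, a call lost in the same settings as that of SAV1, while AMOTL2 stood at 164.7 ± 10.6 CPM in YAPi and 170.8 ± 10.3 CPM in GiWi, and PTPN14, a phosphatase that binds YAP, at 77.2 ± 8.14 CPM in YAPi and 76.6 ± 1.71 CPM in GiWi, and neither passed. AMOTL2 passed as lower with library size as the sole scaling (-0.25, edgeR adjusted p = 0.0153). The 11 calls of this list became 4 and 4 without GiWi replicate 1 or 2, and 5 and 6 without YAPi replicate 1 or 2.

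The YAP and TEAD targets CCN1 and CCN2 were higher in the libraries in which YAP1, WWTR1, TEAD2, TEAD3 and TEAD4 were lower. Of the 22 targets, 13 rose, 6 fell and 3 did not pass (86.4% called, median log2 fold change 0.57). Without YAPi replicate 3, 13 rose and 7 fell. FOXF2, counted among the targets that rose, passed the filter on low counts through the YAPi libraries alone, with 7 and 4 counts in GiWi. CCN1 (listed as CYR61), a secreted matrix protein, measured 167, 173 and 170 CPM in the YAPi libraries, against 81.2 and 86.3 CPM in the GiWi libraries (log2 fold change 1.02 ± 0.06, edgeR adjusted p = 0.00012). CCN2 (listed as CTGF), its relative, measured 300.2, 311 and 295 CPM in YAPi, against 176 and 199.5 CPM in GiWi (0.69 ± 0.07). Both were higher in every YAPi library than in either GiWi library. ANKRD1, a nuclear ankyrin protein that heart muscle also expresses strongly, measured 175, 166 and 99.4 CPM in YAPi, against 87.2 and 76.8 CPM in GiWi. It was lowest in replicate 3 among the YAPi libraries, as the heart muscle markers were, and its call (0.84 ± 0.25, edgeR adjusted p = 0.0335) was lost in 8 of the 15 alternatives, among them without either GiWi library (adjusted p = 0.121 and 0.183) and without YAPi replicate 1 or 2 (0.078 and 0.0857). AXL, a receptor tyrosine kinase, fell by 0.28 on the log2 scale, a call lost without GiWi replicate 2 (adjusted p = 0.0836). Several of these targets also belong to fibroblasts and matrix, whose 8 markers included 5 that rose and 3 that fell, as given above; their part in the result was not tested. With library size as the sole scaling, 11 targets rose and 8 fell, where 3928 of all 17634 tested genes rose and 7036 fell.

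Of the 29 other nuclear partners of YAP, TAZ and TEAD, 11 rose, 13 fell and 5 did not pass (82.8% called, median -0.19). With library size as the sole scaling 9 partners rose and 18 fell, where 3928 of all 17634 tested genes rose and 7036 fell. Without GiWi replicate 1 the list gave 15 calls, against 24. RUNX2, a bone transcription factor that binds YAP and TAZ, rose to 9.23 ± 0.64 CPM in YAPi, against 1.61 ± 0.0406 CPM in GiWi (log2 fold change 2.51 ± 0.12). RUNX1 rose by 0.42 on the log2 scale, a call lost in 6 alternatives, among them without GiWi replicate 1 or 2 (adjusted p = 0.193 and 0.146) and without YAPi replicate 2 (0.0509). TBX5, a cardiac T-box factor that can bind YAP, fell to 6.01 ± 2.23 CPM in YAPi, against 83.7 ± 1.02 CPM in GiWi. SRF, a regulator of muscle and growth genes, fell by 0.37 on the log2 scale. TP73 measured 0.85, 0.799 and 4.45 CPM in YAPi, against 0.131 and 0.155 CPM in GiWi, highest in the library in which VGLL1 was high (log2 fold change 3.80 ± 1.06, edgeR adjusted p = 0.0257). Its log2 fold change was 2.52 without YAPi replicate 3, and the call was lost on both FPKM scales and without GiWi replicate 1 or 2 (adjusted p = 0.141 and 0.133). TP73, RUNX3, PAX8 and FOSL1 rose but passed the filter on low counts through the YAPi libraries alone. Their GiWi counts were 7 and 7.5 for TP73, 2 and 0 for RUNX3, 2 and 2 for PAX8, and 7 and 6 for FOSL1. All are counted in the 11 that rose and in the 82.8% called, so those figures rest in part on such genes. LATS2, AMOTL2, PTPN14 and FJX1 stand on more than 1 of these lists.

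**Figure D5:**
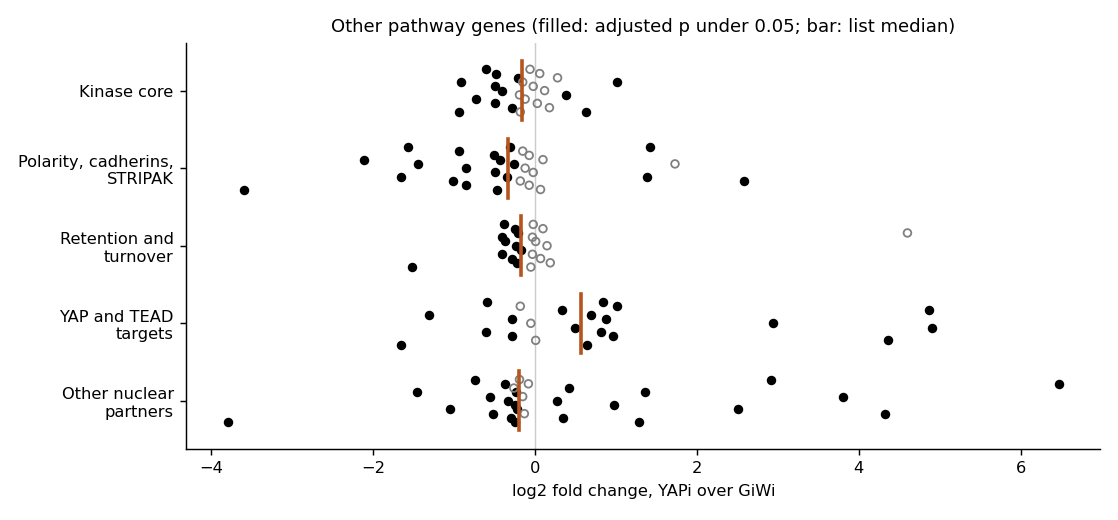
Log2 fold change, YAPi over GiWi, of every tested gene of the 5 pathway lists (1 point per gene, filled where the adjusted p was under 0.05, vertical bars are list medians). The targets have a median of 0.57, and the other 4 lists have medians between -0.33 and -0.16.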

How the data were processed

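RNA of 5 H1 libraries was sequenced from a stranded mRNA kit on a HiSeq 4000, per the labels' protocols. STAR 2.5.1, HOMER, FastQC 0.11.5, the genome build hg19 and edgeR 3.16.1 stand in the submitters' processing notes without a role. The authors deposited estimated counts of exon reads per gene, in steps of 0.5, of which 34.6% are not whole. They were rounded before testing. The authors also deposited FPKM values. For genes with the same transcript in both tables, FPKM equals counts per kilobase over a library total, of which the listed genes hold 80.0 to 85.0%. For 7379 genes, 5 members among them, the FPKM table lists another transcript. Each table has 3 emptied rows, not used here.

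Groups came from the labels. Genes were tested by quasi-likelihood in edgeR 4.0.16 (R 4.3.3), with TMM factors of 0.926 to 1.1 and a Benjamini-Hochberg threshold of 0.05. The filter filterByExpr asked for a count of 10 and a total of 15. The procedure was tested on simulated data. Alternatives used RLE factors, library size, other filters, DESeq2 1.42.0, left-out or summed libraries and a replicate block. Others used limma 3.58.1, by voom with sample weights and on log2 FPKM with pseudocounts 1 and 0.1. Named genes were the members, 20 pathway genes fixed by name, and for each member averaging at least 1 CPM the 2 genes, of at least 10 CPM, nearest in centred log2(CPM + 0.1). Other genes, named after their values were seen, give context. Members and lists were chosen with earlier results of these data known. Figures were drawn with matplotlib 3.10.9.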

Additional observations from a re-analysis of the deposited data

How the results depend on the processing

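Calls for YAP1, TEAD2, TEAD3, TEAD4 and VGLL3 kept their direction and passed under all 15 alternatives. The WWTR1 call was lost with YAPi replicates 1 and 2 summed (-0.15) and in 4 of the 5 settings without 1 library, where its log2 fold change ran from -0.20 to -0.15. TEAD1 passed with library size alone (-0.23), and stood at 0.01 with YAPi replicates 1 and 2 summed; without 1 library it ran from -0.11 to 0.01. VGLL4 turned to -0.05 with library size alone, and DESeq2 called VGLL1 (2.62). The WWTR1 to YAP1 log2 ratio difference ran from 0.26 to 0.37 over libraries left out. It was 0.31 from CPM, and 0.31 with lengths of the count table, an alternative chosen after seeing the data. These last values rest on the same counts and are equal by construction, because library factors and fixed lengths cancel in this difference. They are therefore no separate check.

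Over all genes the median log2 fold change was 0.01 in the main test, -0.18 with library size alone and -0.12 on log2(FPKM + 0.1). The share of calls that were higher was 35.8% with library size alone, 37.6% and 39.5% on log2(FPKM + 1) and log2(FPKM + 0.1), against 52.9%.

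The same replicate numbers do not show that libraries are paired: deviations of replicates 1 and 2 from their group means correlated at 0.0217 between groups. With the replicate block, in which YAPi replicate 3 drops out of the contrast, 13576 genes were called, against 10065. The voom fit gave YAPi replicate 3 a sample weight of 0.144, against 1.92 and 2.31 for YAPi replicates 1 and 2. Both settings therefore come near the one without YAPi replicate 3 and are no separate checks. Under the block TEAD1 (-0.11) and VGLL4 (0.09) passed, and 17 genes of the retention list were called, against 11.

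Over the settings without 1 library, called genes ran from 5909 to 13115, the kinase core from 7 to 18 calls, the retention list from 4 to 14 and the nuclear partners from 15 to 26, against 10065, 13, 11 and 24. The retention list gave 6 calls with YAPi replicates 1 and 2 summed. The cause of these changes was not tested. Of the 20 other named genes, results under alternatives reversed 17 times, all in LATS1, STK4, NF2, AMOTL2 and PTPN14, none of which was called: LATS1 lay at -0.17, -0.02, -0.08, -0.10, -0.02 and -0.02 with library size alone, voom, log2(FPKM + 1), log2(FPKM + 0.1), without YAPi replicate 3 and with the block, and PTPN14 at -0.18, -0.07, -0.11, -0.13, -0.08 and -0.08 in those settings and -0.02 without GiWi replicate 1. Without 1 library LATS1 ran from -0.02 to 0.07, PTPN14 from -0.08 to 0.07, STK4 from -0.06 to 0, NF2 from -0.14 to 0.01 and AMOTL2 from -0.12 to 0.01.

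Depth limits VGLL1 and VGLL2 most, with 4 to 21 counts in the GiWi libraries.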

Other observations

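The genes in this paragraph were picked after their values were seen, and are examples from the target and polarity lists, not a ranking. Among the YAP and TEAD targets, NT5E, an enzyme of the cell surface that makes adenosine, measured 10.4, 11 and 11.8 CPM in the YAPi libraries, against 0.467 and 0.271 CPM in the GiWi libraries. DOCK5, an activator of the GTPase Rac, measured 39.3, 35.9 and 29.8 CPM in YAPi, against 1.79 and 1.62 CPM in GiWi. F3, the tissue factor that starts clotting, measured 22.7, 23.3 and 24.7 CPM in YAPi, against 3.12 and 3.02 CPM in GiWi. FJX1, which stands on the list of targets and on that of polarity genes, measured 15.7, 15 and 19.7 CPM in YAPi, against 49.9 and 55.3 CPM in GiWi. Targets thus lay far apart in both directions between the same libraries.

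Of the 6 cadherins of the Fat and Dachsous kind on the polarity list, FAT3, FAT4, DCHS1 and DCHS2 fell, and FAT1 (log2 fold change -0.02) and FAT2 (1.73) did not pass. FAT2 was high in YAPi replicate 3 alone, at 1.57, 1.27 and 7.05 CPM in YAPi, against 0.821 and 1.16 CPM in GiWi. DCHS1, the ligand of FAT4, measured 84.7, 86.1 and 109 CPM in the YAPi libraries, against 273 and 281 CPM in the GiWi libraries. DCHS2 measured 0.425, 0.846 and 1.58 CPM in YAPi, against 11.4 and 11.2 CPM in GiWi. FAT3 measured 19.9, 20.4 and 23.8 CPM in YAPi, against 93.3 and 90.8 CPM in GiWi. Of the 3 Crumbs genes, which set the apical side of epithelia, CRB1 and CRB3 rose and CRB2 fell. CRB1 measured 7.54, 6.44 and 7.74 CPM in YAPi, against 1.19 and 1.22 CPM in GiWi, CRB3 measured 7.27, 6.56 and 7.27 CPM in YAPi, against 2.84 and 2.51 CPM in GiWi, and CRB2 measured 15.8, 16.1 and 25.6 CPM in YAPi, against 51.3 and 52.4 CPM in GiWi. CRB1 is also a gene of the retina, and the eye field and neural markers were likewise higher in YAPi; their part in its value was not tested.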
